A study of Homo sapiens with 6 samples.

Results

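The mevalonate arm of cholesterol synthesis is described here through 9 of its enzyme genes, ACAT2, HMGCS1, MVK, PMVK, MVD, IDI1, FDPS, GGPS1 and FDFT1, taken by symbol from the 16070 genes of the deposited expression table. All 9 were listed, and all 9 had a mean of at least 0.5 FPKM (fragments scaled by gene length and library total), the minimum used for testing. The cells were NCI-H1299, a long-established line from a human lung carcinoma of the non-small cell kind, grown in medium with 10% serum. The treated cultures had received 25 µM of 6p, a derivative of the natural product platensimycin, for 48 h, and the control cultures vehicle at 0.1% DMSO. There were 3 libraries of each kind, given as independent samples with nothing on separate days or passages, so p-values measure the spread between these samples. A label field calls the controls untreated where the protocol gives them vehicle. The comparison asks which transcripts differ between cells with 6p and cells with vehicle, in 1 line, at 1 dose and 1 time.

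The mevalonate arm joins acetyl-CoA units into isoprenoid diphosphates. Thiolase and HMG-CoA synthase build the carbon skeleton, a pair of kinases and a decarboxylase turn mevalonate into isopentenyl diphosphate, and an isomerase and a prenyl synthase chain these units into farnesyl diphosphate. Squalene synthase then commits farnesyl diphosphate to sterols, while geranylgeranyl diphosphate synthase lengthens it for the prenyl anchors of small GTPases. Genes of this arm are known targets of SREBP-2, a transcription factor released from the endoplasmic reticulum when membrane sterol is low, which is known to act together with NF-Y at CCAAT boxes and with Sp1 at GC boxes.

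Of the 9 genes, 7 fell in cells given 6p and 0 rose. ACAT2, HMGCS1, MVK and IDI1 dropped to between 40.5% and 47.9% of their control mean, and MVD, FDFT1 and FDPS to between 62.6% and 70.1%. PMVK and GGPS1 did not pass the test. Over all 11745 tested genes 25.1% were called lower and 21.3% higher (limma, Benjamini-Hochberg adjusted p under 0.05), that is 2951 and 2506 genes, so a fall as such was common in these libraries. After rescaling to TPM, which gives every library the same total, the split was 3991 lower and 1526 higher, with the same 7 of the 9 genes lower. The median log2 fold change was -0.66 over the 9 genes and -0.04 over all tested genes (-0.21 over all tested genes as TPM), on the log2(FPKM + 1) scale used for every fold change below. A fall of at least 2-fold on that scale, at a limma adjusted p under 0.05, was reached by 1.18% of tested genes. Of the 9, 3 reached it: ACAT2, HMGCS1 and MVK. In the same 7 genes the 6p libraries lay wholly below the control libraries, a separation seen in 31.5% of all tested genes. Each library averages a whole culture, so fewer cells carrying a transcript and less of it per cell cannot be told apart.

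The stretches just upstream of the annotated starts are shown first, to let CCAAT copies be seen beside the values. RefSeq promoter sequences on GRCh38.p14 were held for 7 of the 9 genes, at 12 annotated starts. ACAT2 and FDFT1, both called lower, had none and were not searched. The 250 bases before the start nearest to the GENCODE gene start are printed 5′ to 3′ on the gene's strand, with CCAAT, or its reverse complement ATTGG, in capitals. The first 5 genes fell, and GGPS1 is printed as a gene without the motif at this start. PMVK, also without it there, is not printed.
HMGCS1 (chr5:43313413-43313662, minus strand): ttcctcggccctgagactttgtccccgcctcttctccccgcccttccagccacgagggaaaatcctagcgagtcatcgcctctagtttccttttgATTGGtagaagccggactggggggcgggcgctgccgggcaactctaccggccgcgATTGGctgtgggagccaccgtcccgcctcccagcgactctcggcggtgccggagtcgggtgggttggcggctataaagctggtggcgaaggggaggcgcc
IDI1 (chr10:1049120-1049369, minus strand): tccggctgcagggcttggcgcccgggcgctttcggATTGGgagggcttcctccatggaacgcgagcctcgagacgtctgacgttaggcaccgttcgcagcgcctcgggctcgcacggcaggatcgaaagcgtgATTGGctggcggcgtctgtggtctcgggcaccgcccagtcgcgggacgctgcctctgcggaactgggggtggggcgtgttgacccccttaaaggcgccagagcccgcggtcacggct
MVK (chr12:109573544-109573793, plus strand): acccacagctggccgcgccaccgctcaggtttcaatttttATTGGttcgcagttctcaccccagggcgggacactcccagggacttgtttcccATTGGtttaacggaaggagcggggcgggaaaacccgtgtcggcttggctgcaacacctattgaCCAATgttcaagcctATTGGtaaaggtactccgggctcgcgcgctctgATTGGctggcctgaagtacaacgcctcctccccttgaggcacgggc
MVD (chr16:88663092-88663341, minus strand): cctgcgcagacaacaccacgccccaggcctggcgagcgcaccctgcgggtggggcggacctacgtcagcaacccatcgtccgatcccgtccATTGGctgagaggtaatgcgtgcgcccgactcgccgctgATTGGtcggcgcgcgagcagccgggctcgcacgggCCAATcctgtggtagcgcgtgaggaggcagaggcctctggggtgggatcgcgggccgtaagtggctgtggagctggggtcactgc
FDPS (chr1:155308616-155308865, plus strand): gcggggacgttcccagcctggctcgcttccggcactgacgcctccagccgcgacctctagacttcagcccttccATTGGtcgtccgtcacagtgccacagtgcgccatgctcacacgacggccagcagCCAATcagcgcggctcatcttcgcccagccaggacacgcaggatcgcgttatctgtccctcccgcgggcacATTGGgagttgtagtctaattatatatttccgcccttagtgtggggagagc
GGPS1 (chr1:235326966-235327215, plus strand): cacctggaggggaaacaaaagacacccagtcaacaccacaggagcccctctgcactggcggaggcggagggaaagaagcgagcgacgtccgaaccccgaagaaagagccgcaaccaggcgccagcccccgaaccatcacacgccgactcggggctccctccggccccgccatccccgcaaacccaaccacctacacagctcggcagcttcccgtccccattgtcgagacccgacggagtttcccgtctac

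CCAAT occurred 5 times before MVK, 3 times before MVD and before FDPS, and 2 times before HMGCS1 and before IDI1. It occurred 0 times before PMVK and before GGPS1, the genes that were not called. ACAT2 and FDFT1, called lower, were not searched, and a link between copies and calls was not tested. At least 1 copy was present before 5 of the 7 matched genes (71.4%), before 7 of 10 matched squalene to cholesterol genes (70.0%), before 2 of 7 matched SREBP sensing genes (28.6%) and before 35.7% of 9413 tested genes matched the same way. At least 2 copies were present before the same 5 of the 7 genes, and before 30.0%, 0% and 13.3% of those other sets. In these neighbouring lists copies and calls went together in some genes and not in others. The genes named here were chosen after their values were seen. MSMO1 had 4 copies and EBP had 3, and each was called lower, while MBTPS1 and MBTPS2 had 0 and were not called. LBR and SREBF1 had 0 copies and were called lower, NSDHL had 5 and was not called (log2 fold change -0.15, limma adjusted p = 0.185), and TM7SF2 had 1 and was called higher. Copies in FDPS lay between positions -176 and -51 relative to the start, and those in MVK between -210 and -46. Other annotated starts held fewer or more: an alternative HMGCS1 start had 0, further IDI1 starts had 3 and 0, and further GGPS1 starts had 1 and 0. The GC box GGGCGG, searched on both strands, was found at 1 or 2 places before all matched genes but GGPS1. It was found 0 times at the printed GGPS1 start and 2 times at each further GGPS1 start. Over all 35116 annotated starts, which can count a gene more than once, 42.6% held it. The 9-letter sterol motif TCACNCCAC and the E-box CACGTG were found 0 times in these windows, and in 0.883% and 6.34% of all starts. A motif match is a description of letters, and no binding was measured.

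**Figure D1:**
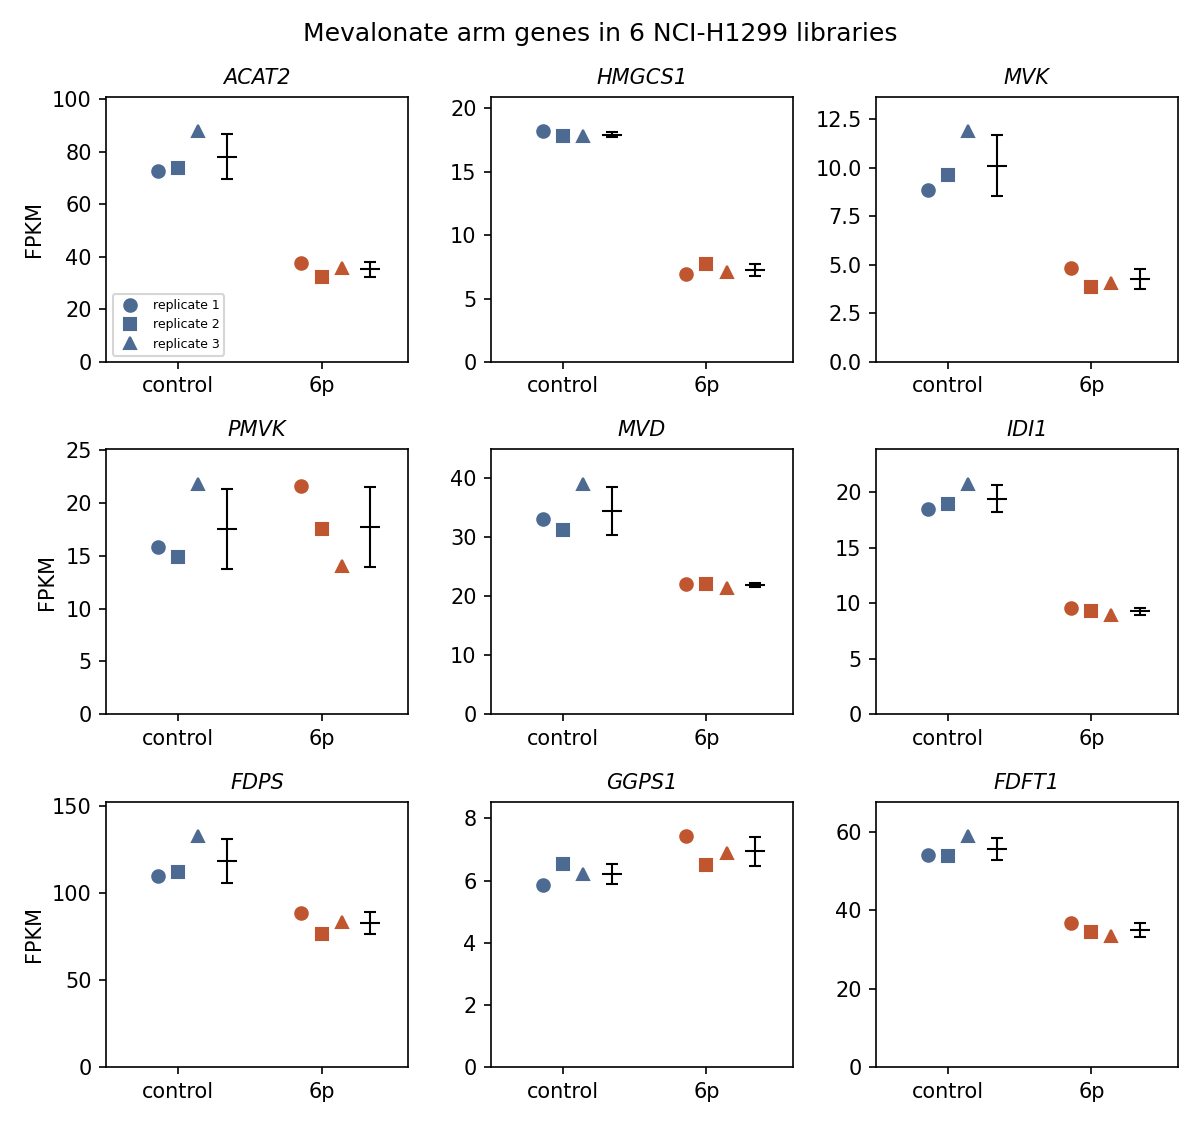
FPKM (vertical axes, each from 0) of the 9 mevalonate arm genes in 3 control and 3 6p libraries, with the mean and SD beside the points. The 6p points of ACAT2, HMGCS1, MVK, MVD, IDI1, FDPS and FDFT1 all lie below their control points, while those of PMVK and GGPS1 overlap.

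Among the 9 genes, both that act at entry into the pathway had lower transcript levels in 6p. ACAT2, the cytosolic thiolase that joins a pair of acetyl-CoA molecules into acetoacetyl-CoA, read 72.6, 73.8 and 87.8 FPKM in control replicates 1 to 3 and 37.6, 32.2 and 35.8 FPKM in 6p replicates 1 to 3. The highest 6p value was thus well under the lowest control value. Its mean went from 78.1 ± 8.45 to 35.2 ± 2.74 FPKM (SD, n = 3 libraries in each group, as for all means below), a log2 fold change of -1.12 ± 0.10 (moderated SE, as for all fold changes below; limma adjusted p = 1.18e-04). HMGCS1, the cytosolic HMG-CoA synthase, read 18.2, 17.8 and 17.8 FPKM in control and 6.91, 7.75 and 7.09 FPKM in 6p. These were the tightest controls of the 9 genes, with an SD of 0.211 FPKM around 17.9, and its log2 fold change of -1.20 ± 0.07 was the largest fall among them (adjusted p = 2.32e-05).

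Of the transcripts for the steps from mevalonate to isopentenyl diphosphate, those of the first kinase and of the decarboxylase fell. That of the kinase between them was not called in either direction. MVK, mevalonate kinase, read 8.85, 9.63 and 11.9 FPKM in control and 4.83, 3.86 and 4.08 FPKM in 6p. Its mean went from 10.1 ± 1.57 to 4.26 ± 0.508 FPKM, at a log2 fold change of -1.08 ± 0.12 (adjusted p = 3.37e-04). Because the gene is low, the added 1 FPKM shrinks its fold: with a pseudocount of 0.1 it was -1.22.

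PMVK, phosphomevalonate kinase, read 15.8, 14.9 and 21.8 FPKM in control and 21.6, 17.5 and 14.0 FPKM in 6p. Its highest control and its highest 6p value were nearly equal, and its lowest value of all came from a 6p library. The means were 17.5 ± 3.73 and 17.7 ± 3.78 FPKM, with a log2 fold change of 0.02 ± 0.18 (adjusted p = 0.947), the widest SE of the 9 genes. Values of 375, 351 and 535 fragments in control and 551, 397 and 301 in 6p stood behind it. MVD, mevalonate diphosphate decarboxylase, read 33.1, 31.1 and 39.0 FPKM in control and 22.1, 22.0 and 21.4 FPKM in 6p. The 6p libraries agreed closely, with an SD of 0.390 FPKM, and the log2 fold change was -0.63 ± 0.09 (adjusted p = 0.00115).

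Transcripts for isomerisation and chain building fell to different extents. IDI1, isopentenyl diphosphate isomerase, read 18.5, 19.0 and 20.8 FPKM in control and 9.60, 9.36 and 8.94 FPKM in 6p. Its mean of 9.30 ± 0.335 FPKM in 6p was 47.9% of the control mean of 19.4 ± 1.25, at a log2 fold change of -0.99 ± 0.08 (adjusted p = 6.58e-05). FDPS, farnesyl diphosphate synthase, read 109.8, 112.1 and 132.8 FPKM in control and 88.8, 76.5 and 83.5 FPKM in 6p. It was the most abundant of the 9 per length in both groups and had the smallest fall among those called, at -0.50 ± 0.10 (adjusted p = 0.00478). The annotation holds 8 FDPS pseudogenes, and the sources used here do not say how reads shared with them were counted, so the level of FDPS is uncertain to that extent.

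**Figure D2:**
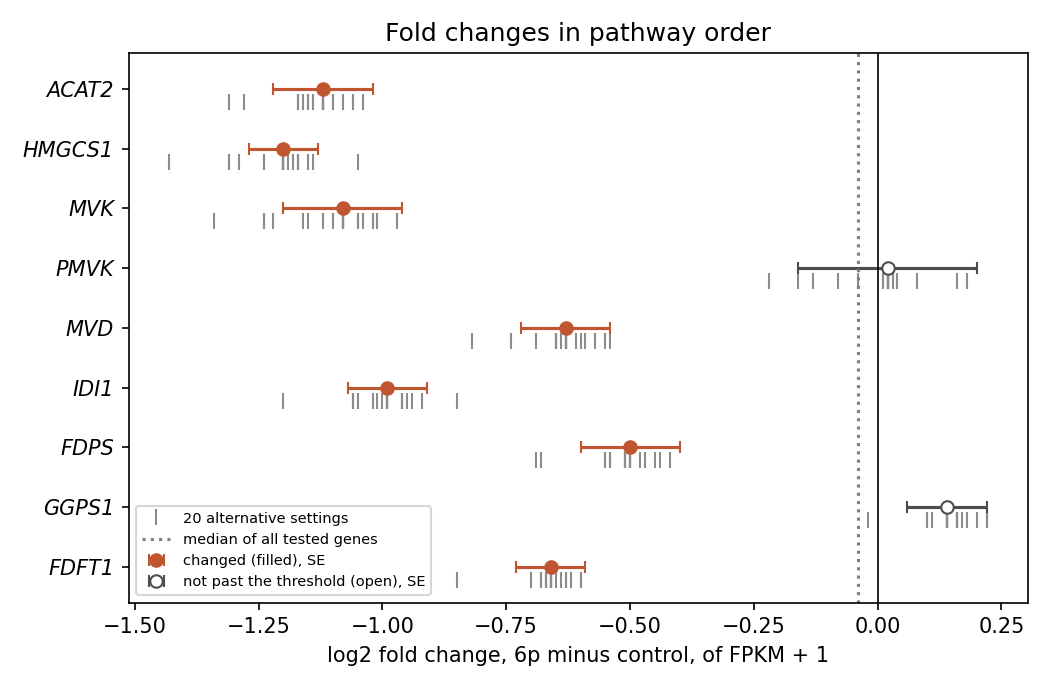
Log2 fold change of 6p minus control (horizontal axis, FPKM + 1) for the 9 genes in pathway order, as points with SE, filled where adjusted p was under 0.05, and ticks below each for 20 alternative settings. The 7 filled genes stay to the left of the dotted line, the median of all tested genes at -0.04, in every setting, and PMVK and GGPS1 have settings on either side of 0.

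The branch point after farnesyl diphosphate was split. FDFT1, squalene synthase, read 54.2, 54.0 and 59.0 FPKM in control and 36.9, 34.4 and 33.5 FPKM in 6p. The mean fell from 55.7 ± 2.79 to 34.9 ± 1.76 FPKM, with a log2 fold change of -0.66 ± 0.07 (adjusted p = 3.56e-04). GGPS1, geranylgeranyl diphosphate synthase, read 5.87, 6.53 and 6.21 FPKM in control and 7.43, 6.51 and 6.88 FPKM in 6p. Its groups overlapped only at control replicate 2 and 6p replicate 2, and its log2 fold change of 0.14 ± 0.08 did not pass (adjusted p = 0.182).

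Taken as a ratio within each library, which cancels the library total, FDFT1 stood at 9.24, 8.27 and 9.49 times GGPS1 in control and at 4.96, 5.29 and 4.86 times in 6p. Every 6p ratio was below every control ratio. The mean difference on the log2 scale was -0.84, and an exact two-sided permutation test gave p = 0.100, the smallest that 3 libraries against 3 allow. The ratio thus moved by more than the spread between libraries, in a design that cannot reach the 0.05 threshold with this test.

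Levels per length spanned 19.1-fold across the 9 genes in control, from FDPS to GGPS1, and 19.5-fold in 6p, from FDPS to MVK. In control the order by mean FPKM was FDPS, ACAT2, FDFT1, MVD, IDI1, HMGCS1, PMVK, MVK and GGPS1. The only neighbours in that order with overlapping libraries were HMGCS1 and PMVK. In 6p, PMVK stood above IDI1 and HMGCS1, and GGPS1 above MVK, and libraries overlapped for ACAT2 with FDFT1, MVD with PMVK and HMGCS1 with GGPS1. FDPS and ACAT2 lay at the 95.5th and 92.8th percentile of tested genes in control, and GGPS1 at the 40.1st.

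The libraries held between 16775655 and 19957335 fragments, recovered from the FPKM values, and the 9 genes had from 186 fragments (MVK in 6p replicate 2) to 4740 (FDFT1 in control replicate 3). Control replicate 3 and 6p replicate 1 stood apart from the rest of their groups by gene length. Across genes, Spearman's rank correlation of gene length with a library's deviation from its fellow libraries was -0.677 and -0.517 in them and between 0.362 and 0.645 in the other 4. The line's markers VIM, KRT8 and KRT18 were abundant, with control means of 2827, 302.5 and 596.4 FPKM, and KRT19 was at 0.142 FPKM. Of 9 listed markers of leukocytes, endothelium and fibroblasts, 0 reached the minimum for testing. Their summed level ran from 0.693 to 0.798 FPKM in control and from 0.437 to 0.659 FPKM in 6p, with PTPRC and CDH5 at 0 in all controls.

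**Figure D3:**
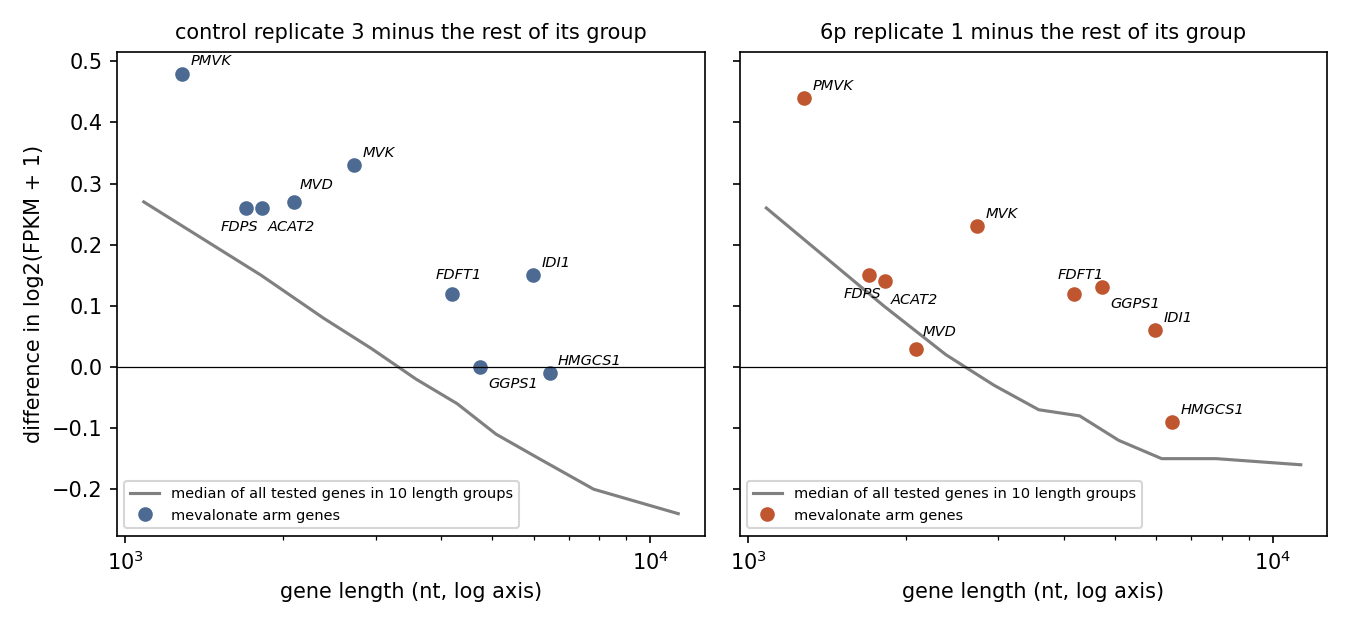
Difference in log2(FPKM + 1) of control replicate 3 (left) and 6p replicate 1 (right) from the other libraries of their group (vertical axis) against gene length (log axis), for the 9 genes as points and the median of all tested genes in 10 length groups as a line. PMVK, the shortest of the 9, stands highest in both panels, at 0.48 and 0.44.

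These libraries touched the 9 genes unequally. Control replicate 3 was the highest control in 7 of the 9 and 6p replicate 1 the highest 6p library in 8 of the 9. PMVK, whose length of 1281 nt puts it at the 7.27th percentile, read 0.48 higher in control replicate 3 and 0.44 higher in 6p replicate 1 than in the rest of their groups (log2 scale). HMGCS1, the longest at 6438 nt, read -0.01 and -0.09. Length did not order every gene: IDI1, at 5976 nt, read 0.15 and 0.06, and FDFT1, at 4189 nt, 0.12 and 0.12. The tested genes with a median length of 6145 nt had medians of -0.15 and -0.15, and those of 4287 nt -0.06 and -0.08. Without these libraries the same 7 genes were lower, against 35.7% of 11778 tested genes lower, and PMVK and GGPS1 were at 0.03 and 0.10 (adjusted p = 0.781 and 0.257). With each library's trend on length removed, PMVK was at -0.22 (adjusted p = 0.136) and GGPS1 at 0.22 (adjusted p = 0.0668). The fold changes of FDPS and ACAT2, which are also short, went to -0.68 and -1.28, and that of HMGCS1 to -1.05.

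Genes lying over a member or head to head with it were read as well, since the sources used here do not state that counting used strand. On GRCh38 in GENCODE release 29, MVK (NCBI gene 4598, chromosome 12, 109573255 to 109598117) runs away from MMAB, which encodes a cobalamin adenosyltransferase, and the models overlap by 620 nt at their starts. RefSeq places the 2 starts 290 nt apart, so the MVK stretch printed above lies between them. MMAB fell as well, from 6.02 ± 0.459 to 3.74 ± 0.527 FPKM (-0.57 ± 0.10, adjusted p = 0.00313). IDI1 (3422, chromosome 10, 1039152 to 1049170) has WDR37 starting 368 nt away on the other strand, and WDR37 fell from 5.40 ± 0.359 to 3.51 ± 0.617 FPKM (-0.51 ± 0.11, adjusted p = 0.00773).

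ACAT2 (39, chromosome 6, 159760328 to 159779055) overlaps TCP1, a chaperonin subunit, by 558 nt and SOD2, the mitochondrial superoxide dismutase, by 2202 nt, both on the other strand. TCP1 was far above it, at 403.7 ± 30.4 FPKM without 6p and 343.4 ± 29.4 with it (-0.23 ± 0.10, adjusted p = 0.0967), and was called lower in 5 of 20 alternative settings, among them without 6p replicate 1 (adjusted p = 0.0403). SOD2 went from 9.70 ± 0.283 to 7.47 ± 0.306 FPKM (-0.34 ± 0.07, adjusted p = 0.00628), a call lost with the length trend removed (-0.09, adjusted p = 0.446). GGPS1 (9453, chromosome 1, 235327350 to 235344532) shares 15963 nt with TBCE on the same strand and 870 nt with ARID4B on the other. TBCE, a tubulin cofactor, was at 5.37 ± 0.530 FPKM without 6p and 5.11 ± 0.0995 with it (adjusted p = 0.602). ARID4B, a chromatin protein, was at 3.98 ± 0.653 and 2.89 ± 0.293 FPKM (-0.35 ± 0.12, adjusted p = 0.0377), a call lost in 8 of 20 settings. Among these, leaving out control replicate 1 or 2 or any 6p replicate gave adjusted p between 0.0572 and 0.138. Reads that cannot be placed within such overlaps make the level of GGPS1 uncertain.

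The other 5 genes had no other listed gene over them or head to head within 1 kb, though antisense or noncoding models, not listed in the table, overlap HMGCS1, FDPS and FDFT1. HMGCS1 (3157) is on chromosome 5, 43289395 to 43313512, PMVK (10654) on chromosome 1, 154924734 to 154936991, and MVD (4597) on chromosome 16, 88651935 to 88663161. FDPS (2224) is on chromosome 1, 155308748 to 155320666, and FDFT1 (2222) on chromosome 8, 11795573 to 11839309.

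Genes around the arm were read from lists of its neighbours in metabolism. The shares to set beside each list's counts were 25.1% lower and 21.3% higher over all tested genes. In the steps from squalene to cholesterol, 10 of 12 genes were lower and 1 higher, with a median log2 fold change of -0.69 beside -0.66 for the mevalonate arm. LBR, a sterol reductase of the nuclear membrane, changed by -1.07 ± 0.08 and SQLE, squalene epoxidase, by -0.97 ± 0.07. TM7SF2, which shares its reductase activity with LBR, was the 1 gene that rose, at 0.49 ± 0.08 (adjusted p = 0.00205). Without control replicate 3 and 6p replicate 1, 11 of the 12 were lower and 1 higher. In that fit 35.7% of all tested genes were lower and 30.2% higher.

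Genes that sense sterol and release SREBP were lower in 6 of 12 cases and higher in 1, with a median of -0.30. Over the settings the lower count ran from 4 to 7. The higher count was 0 after rescaling to TPM, with the replicate block and without control replicate 1 or 2, in turn. It was 3 with the length trend removed, and without control replicate 3 and 6p replicate 1 together. SREBF2, the gene of SREBP-2, was lower (-0.62, limma adjusted p = 0.00579). INSIG1, which holds the SREBP escort in the endoplasmic reticulum, read 52.6, 53.1 and 48.1 FPKM in control and 19.4, 16.4 and 17.0 FPKM in 6p (-1.49 ± 0.08, adjusted p = 1.96e-05). SREBF1, the gene of SREBP-1, changed by -0.82 ± 0.09 and ERLIN1, a membrane protein of the endoplasmic reticulum, by -0.46 ± 0.07. INSIG2, the close relative of INSIG1, moved the other way, from 5.54 ± 0.487 to 7.53 ± 0.933 FPKM (0.38 ± 0.10, adjusted p = 0.0167). That rise was lost without control replicate 1 (adjusted p = 0.0602) or control replicate 2 (adjusted p = 0.0685) and after rescaling to TPM (adjusted p = 0.0773).

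**Figure D4:**
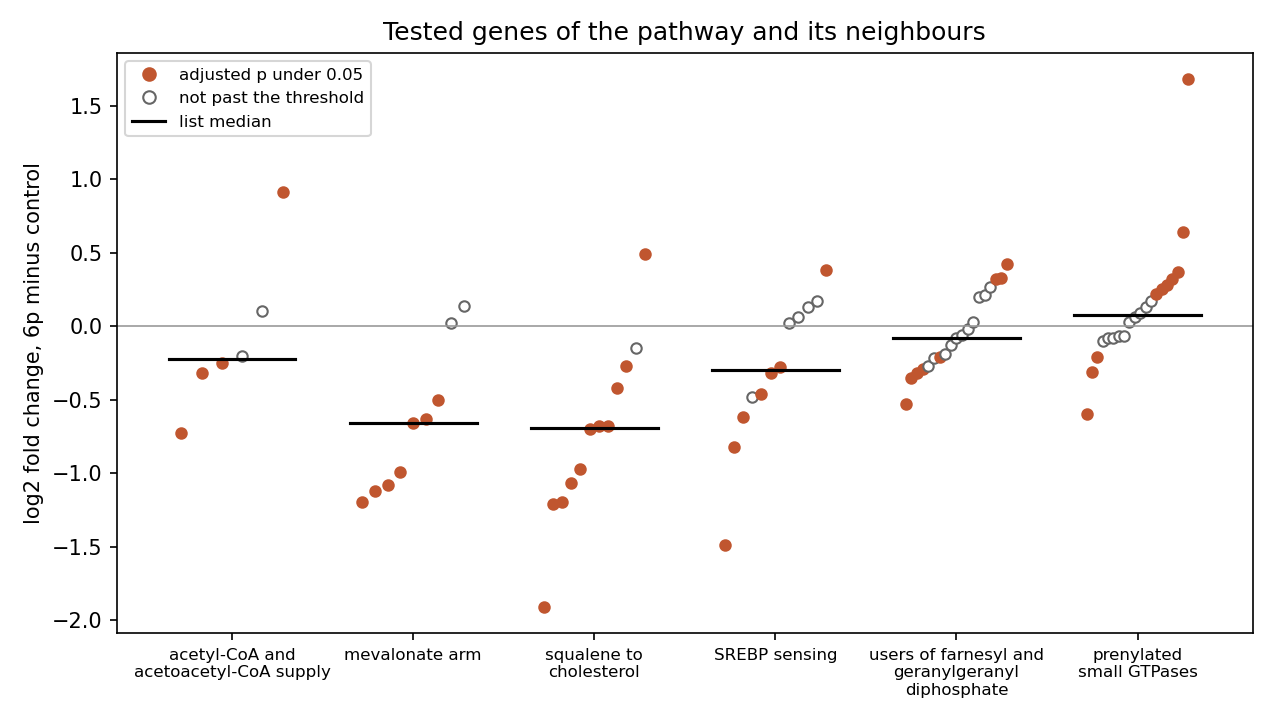
Log2 fold change of 6p minus control (vertical axis, FPKM + 1) for each tested gene of the mevalonate arm and 5 neighbouring lists, filled where adjusted p was under 0.05, with a bar at each list's median. The mevalonate arm and the squalene to cholesterol genes have medians of -0.66 and -0.69, and the prenylated small GTPases one of 0.08.

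Among genes that supply or divert the arm's precursors, 3 of 6 were lower and 1 higher, with a median of -0.23. The lower count was 1 without control replicate 2, control replicate 3 or 6p replicate 2, in turn, and with the replicate block. ACLY, ATP citrate lyase, which makes cytosolic acetyl-CoA, went from 57.3 ± 4.26 to 34.5 ± 5.94 FPKM (-0.73 ± 0.13, adjusted p = 0.00289). ACAT1, the mitochondrial thiolase and relative of ACAT2, changed by -0.32 ± 0.10 (adjusted p = 0.0299), a call lost in 7 of 20 settings, among them leaving out control replicate 2 or 3 or 6p replicate 2 or 3 (adjusted p between 0.0627 and 0.108).

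Downstream of farnesyl and geranylgeranyl diphosphate the changes were small and mixed. Of 19 tested genes that use these molecules for protein prenylation, dolichol, ubiquinone or related products, 3 were higher and 5 lower. That is near the shares over all tested genes, 21.3% higher and 25.1% lower. The list's median was -0.08, and 2 further genes were under the minimum. Without control replicate 3 and 6p replicate 1 the list's counts were 6 and 8, in a fit that called 30.2% of all tested genes higher and 35.7% lower. The lower count was 1 without control replicate 2, and the higher count was 1 after rescaling to TPM. ICMT, which methylates prenylated proteins, changed by -0.53 ± 0.07 (adjusted p = 8.60e-04). RABGGTA, a subunit of the geranylgeranyl transferase for RAB proteins, rose by 0.42 ± 0.08. FNTA, the shared subunit of farnesyl and geranylgeranyl transferase, rose by 0.33 ± 0.07 (adjusted p = 0.00579), a call lost with the length trend removed (adjusted p = 0.126) or after rescaling to TPM (adjusted p = 0.168). RCE1, a protease for prenylated proteins, was at 0.32 ± 0.12 with overlapping groups (adjusted p = 0.0486), and its call was lost in 13 of 20 settings, among them without control replicate 1 or 2 or 6p replicate 1 or 3 (adjusted p between 0.0992 and 0.159).

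Of 20 small GTPases that carry such anchors, 7 were higher and 3 lower, with a median of 0.08. Over all tested genes 21.3% were higher and 25.1% lower. The list's counts fell when single libraries were left out. Without control replicate 1, control replicate 2 or 6p replicate 3, in turn, 3 were higher and 1 lower. Without 6p replicate 1, 4 were higher. The replicate block also left 3 higher and 1 lower. Leaving out control replicate 1, control replicate 2 or 6p replicate 3 lowered the counts over all tested genes too. Those were 1888, 1736 and 1960 higher, from 2506, and 2001, 1788 and 2289 lower, from 2951. RHOB, a GTPase that can carry either prenyl group, read 18.1, 20.7 and 19.6 FPKM in control and 66.1, 63.3 and 64.1 FPKM in 6p. Its log2 fold change of 1.68 ± 0.07 (adjusted p = 7.36e-06) was the largest rise of any gene on the lists. RAP2B rose by 0.64 ± 0.07, and RAB8A, a RAB protein of vesicle transport, fell by 0.60 ± 0.07 on the log2 scale (adjusted p = 5.56e-04). The 2 other lower genes, CDC42 and RAP2A, were at -0.21 ± 0.07 and -0.31 ± 0.10, with calls lost in 10 and 6 of 20 settings, and CDC42 stood at 0.03 with the length trend removed. Leaving out any single library except 6p replicate 1 ended the call for CDC42 (adjusted p between 0.0536 and 0.127), and leaving out control replicate 1 or 2 or 6p replicate 1 or 3 ended that for RAP2A (adjusted p between 0.0773 and 0.135). After rescaling to TPM the list held 3 higher and 6 lower genes, so its balance of directions depends on scaling.

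The genes with the profile nearest to the mean of the 9 were sought over the 6 libraries, by the root-mean-square difference of centred log2 values among 11258 tested genes outside the lists, without symbols of clones, pseudogenes, antisense RNAs and open reading frames. The nearest was UNG, a uracil DNA glycosylase, at 0.0288, followed by AURKB, a mitotic kinase, at 0.0373. WRAP53, SRSF2 and HMGB1 came next, at 0.0421, 0.0429 and 0.0434. FDFT1 itself differed from the mean by 0.0307, MVD by 0.0553, FDPS by 0.0938 and IDI1 by 0.162. MVK, ACAT2 and HMGCS1, which fell further, differed by 0.213, 0.233 and 0.286, and GGPS1 and PMVK by 0.412 and 0.378. Of the 11258 genes, 1349, 1823 and 3404 were at least as close to the mean as MVK, ACAT2 and HMGCS1. The mean profile was 0.26, 0.27 and 0.47 in control replicates 1 to 3 and -0.24, -0.37 and -0.39 in 6p replicates 1 to 3, so it holds both the group difference and the high values of control replicate 3.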

How the data were processed

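RNA was measured in 6 libraries of NCI-H1299, made with a stranded mRNA kit per the labels' protocols. The deposited values are FPKM per gene; the authors used Trimmomatic, HISAT2, HTSeq, Cufflinks and the GRCh38 build, per the submitters' processing notes. Versions, annotation, use of strand and handling of shared reads: not given in the sources used here. FPKM divides by gene length and library total, so a length-dependent difference between libraries stays in it.

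Fragments per gene and library totals were recovered from the FPKM steps, and 100% of 11745 tested genes came out whole within 0.001 fragments. Genes averaging 0.5 FPKM or more were tested on log2(FPKM + 1) with limma 3.58.1 in R 4.3.3 (empirical Bayes with trend and robust), two-sided, Benjamini-Hochberg adjusted over all tested genes, threshold 0.05. The fitting was tested on simulated data. Ratios, permutation tests and motif counts used Python 3.11.15 and scipy 1.17.1, with 0 per-sample columns left unused. Coordinates are from GENCODE release 29 and promoter sequences from RefSeq on GRCh38.p14.

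The 9 genes and the lists were chosen with earlier results of these data known. Some genes named beside the CCAAT copies, and SREBF2, were chosen apart from the rule given next. Besides the 9 genes, the text names from each list the up to 3 genes with the smallest adjusted p and any called against the majority, listed genes over a member or head to head within 1000 nt, and the 5 nearest profiles; some genes that this rule takes are not reported here. The 20 alternatives covered the pseudocount, the filter, scaling, TPM, the length trend (loess, span 0.5), the moderation, a replicate block, voom on recovered fragments, each library left out, and both libraries that stood apart left out together.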

Additional observations from a re-analysis of the deposited data

How the results depend on the processing

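The 9 genes kept their calls, 7 lower and 0 higher, in all 20 alternatives. The number of genes called among all tested moved more: from 2506 to 1526 higher after rescaling to TPM, and from 2951 to 1920 lower with a replicate block and to 1788 lower without control replicate 2. Leaving out single libraries gave 1736 to 2718 higher and 1788 to 3377 lower. With the replicate block, 1774 genes were higher and the same 7 of the 9 genes were lower. Deviations of same-numbered libraries correlated at -0.569, 0.326 and -0.417, so the numbers were not taken to pair the samples, and not every library correlated best with its own number.

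PMVK, which was called in no setting, changed sign to -0.16 as TPM, -0.22 with the length trend removed, and -0.04, -0.08 and -0.13 without control replicate 1, control replicate 2 and 6p replicate 1. Its highest value was 0.18, without control replicate 3. GGPS1, likewise never called, was at -0.02 as TPM. CDC42 went to 0.03 with the length trend removed. TBCE, not called, was at 0.00 with median recentring, 0.02 with quantile normalization, 0.06 with the length trend removed and 0.01 without control replicate 3, and its lowest value on leaving out a library was -0.10, without control replicate 2. The cause of these changes was not tested. The difference between 6p and control in the log2 ratio of FDFT1 to GGPS1 stayed between -0.90 and -0.79 in the alternatives run. Rescaling to TPM cancels in a ratio within a library, so that setting could not move it. The exact permutation p was 0.200 with any single library left out and 0.333 without control replicate 3 and 6p replicate 1, as fewer libraries raise the smallest p possible. Of 617 further values for the other named genes, 557 kept direction and call, 50 lost the call, 5 gained it and 5 reversed. Counts for the neighbouring lists moved by more than 1.5 times in 32 of 200 values. MVK, the member with the fewest fragments in a library, had 186 to 622, and no detection limit by depth was tested.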
